A study of Mus musculus with 2 samples.

Results

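The transcripts described here encode 9 proteases reported to cut amyloid-beta (Plat and Plau through plasmin) and A2m, a protease inhibitor that binds the peptide. They were taken by name, as every probe set that the platform's probe-to-gene table paired with exactly 1 symbol among Mme, Ide, Ece1, Ace, Mmp2, Mmp9, Mmp14, Plat, Plau and A2m. This gave 16 probe sets for the 10 genes, of 12418 probe sets in all and of 8251 genes with a probe set of 1 symbol. No probe set paired a member with a further symbol. A probe set is a group of short oligonucleotides on the array that together report 1 transcript.

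The study hybridised total RNA of mouse cerebral cortex to oligonucleotide arrays. One group was the PS cDKO, the presenilin conditional double knockout, and the other was its control, both aged 6 months, with 1 array each. The labels do not name the alleles, the Cre driver and the cells it acts in, the genotype of the control, the strain, the sex, or whether RNA of several mice was pooled. With 1 array per genotype no difference below has a replicate check, and no p-value or error between animals can be given.

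Amyloid-beta is cut out of the amyloid precursor protein by β-secretase and then γ-secretase, whose catalytic subunits are the presenilins. Once released it is removed by proteases, by transport across vessel walls and by uptake into glia. Zinc metallopeptidases cut the free peptide, matrix metalloproteinases act in the extracellular matrix and also on fibrils, and the plasminogen activators turn plasminogen into plasmin, which cuts amyloid-beta in its turn.

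Psen2, a presenilin gene, had a deposited intensity of 94.85 on the PS cDKO array and 105.15 on the control array. Both lay below the floor of 232 that separates readable from low signals here, so this probe set gave no check of the genotype. A signal past that floor is called readable. The floor was the 40th percentile of both arrays pooled, after the PS cDKO array had been multiplied by 1.02 to bring the brighter probe sets of both arrays to a common median. A log2 ratio is PS cDKO over control on the scaled signals, and a probe set readable on 1 array alone gives a bound. The median deposited intensity was 305 on the PS cDKO array and 300 on the control array, and the floor was passed by 60.9% of probe sets on the PS cDKO array and 59.1% on the control array. Intensities of different probe sets are not comparable as levels.

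None of the 7 probe sets readable on both arrays reached 1.5-fold, with Ece1 (1.45-fold lower) and Mmp2 (1.40-fold higher) farthest from level. Mme and Plat could not be read on either array. Of the 16 probe sets, 7 were readable on both arrays, 3 on the PS cDKO array alone and 6 on neither. Among the 10 with a ratio or a bound, taken at its limit, 0 reached 1.5-fold upward and 0 downward, where 1.31% and 1.18% of all 7810 measured probe sets did. Without scaling these shares were 1.01% and 1.61%, and both member counts were still 0. At a smaller threshold, 3 of the 10 were at least 25% higher and 1 at least 20% lower, against 8.98% and 9.21% of all measured probe sets. These are equal steps on the log2 scale. The 3 were 2 probe sets of Ace and 1 of Mmp2, and the lower one was that of Ece1. By gene, the readable Ace probe sets averaged a log2 ratio of 0.19, short of that step. Mmp2 was then the only member gene at least 25% higher and Ece1 the only one at least 20% lower. Of all measured genes 8.05% and 8.36% were as far. One of the Ace probe sets and those of Plau and A2m passed the floor through the PS cDKO array alone. Their direction was thus fixed by the filter, and their bounds do not show whether 1.5-fold was reached.

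**Figure D1:**
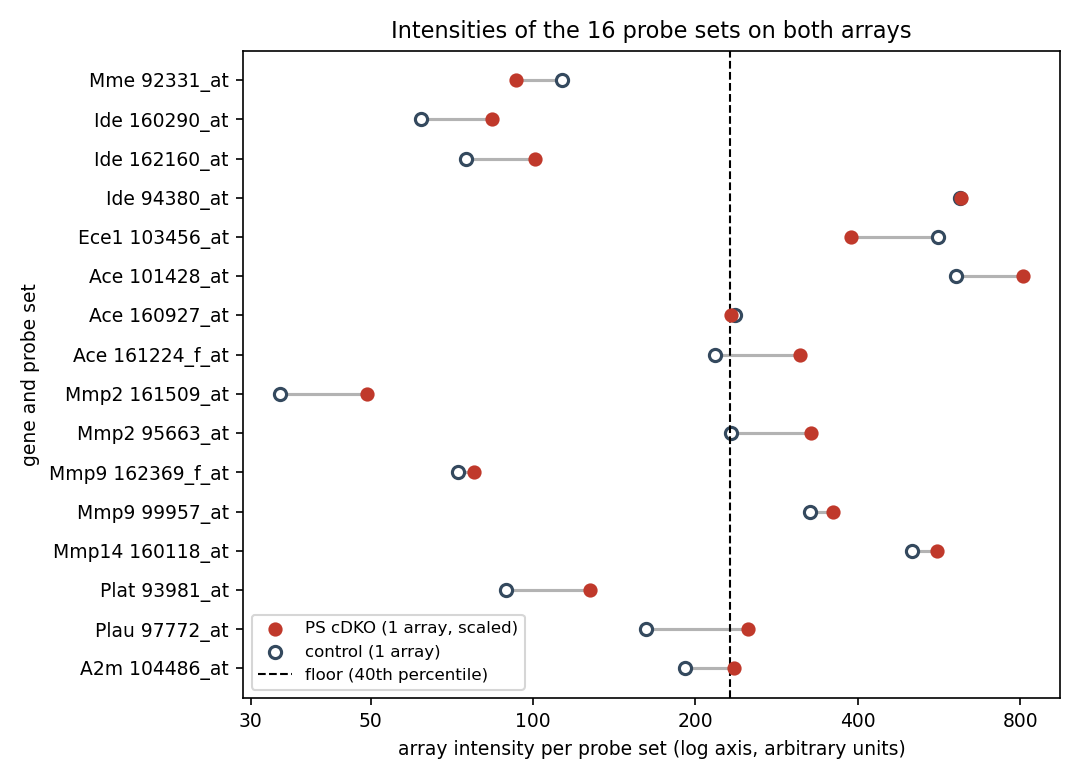
Array intensity on a log axis for each of the 16 probe sets, with the PS cDKO array (filled, scaled) and the control array (open) joined by a line and the floor of 232 dashed. Of the probe sets that reach the floor on at least 1 array, Ece1 has the widest gap downward, and those of Plau, Ace and Mmp2 have the widest gaps upward, all close to the floor except the Ace probe set at 790 against 609 as deposited.

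Among the metallopeptidases, Ece1 was lower in the PS cDKO. Ece1, gene ID 230857, is endothelin-converting enzyme, a membrane metallopeptidase that makes endothelin from its precursor and cuts amyloid-beta in intracellular compartments. Its only probe set, 103456_at, read 379.74 on the PS cDKO array and 563.42 on the control array, 1.45-fold lower on the scaled signals with a log2 ratio of -0.54. Under the other scalings and floors tried the log2 ratio ranged from -0.57 to -0.48. Of the 1527 probe sets within 0.25 log2 of its mean signal, 2.10% had a lower ratio and 3.67% lay as far from 0 in either direction. Ece1 had the lowest ratio of the 16 member probe sets, so these shares give its place and do not measure how unusual it is.

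Ace, angiotensin-converting enzyme, gene ID 11421, makes angiotensin II from angiotensin I and can cut amyloid-beta. Its 3 probe sets gave different readings. Probe set 101428_at read 789.85 on the PS cDKO array and 608.67 on the control array, 1.33-fold higher, and 7.65% of the 1320 probe sets of like signal lay as far from 0. By contrast 160927_at read 227.57 on the PS cDKO array and 236.71 on the control array, a log2 ratio of -0.02, with both values at the floor's edge. Probe set 161224_f_at, whose suffix marks probes that may match other transcripts, read 305.37 on the PS cDKO array and 217.64 on the control array, which is a bound of at least 1.35-fold higher. The first and the second of these differed by 0.43 on the log2 scale. For comparison, the root mean square difference between a pair of readable probe sets of the same gene was 0.30 over 749 genes.

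The RefSeq table of promoters on GRCm38.p6, which runs from 250 bases before to 50 after each start, held 5 of the 10 members: Mme, Ide, Ece1, Ace and Mmp14. It had no entry for Mmp2, Mmp9, Plat, Plau and A2m. Ace has 2 listed starts 7241 bases apart, and the gene is known to have an internal start that is used in male germ cells. Both are shown because the Ace probe sets gave different readings, beside the most upstream of the 4 listed Ece1 starts, Ece1 being the lower member. The sources used here do not say where the probes lie relative to these starts. Capitals mark the letters GGGCGG (a GC box) or TATAAA on either strand.
Ace, first start, chr11:105967698-105967997, plus strand: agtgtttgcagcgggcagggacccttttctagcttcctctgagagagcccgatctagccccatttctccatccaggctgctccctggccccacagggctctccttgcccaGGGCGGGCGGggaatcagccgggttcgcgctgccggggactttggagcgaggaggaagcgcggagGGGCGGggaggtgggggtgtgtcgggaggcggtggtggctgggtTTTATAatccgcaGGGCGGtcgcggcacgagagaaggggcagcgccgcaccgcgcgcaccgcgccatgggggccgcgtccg
Ace, second start, chr11:105974939-105975238, plus strand: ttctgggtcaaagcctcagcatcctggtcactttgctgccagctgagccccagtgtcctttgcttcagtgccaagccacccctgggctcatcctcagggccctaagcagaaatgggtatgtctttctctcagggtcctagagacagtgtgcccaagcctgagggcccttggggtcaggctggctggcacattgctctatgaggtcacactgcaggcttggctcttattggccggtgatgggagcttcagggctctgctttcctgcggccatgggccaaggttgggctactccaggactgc
Ece1, first start, chr4:137861987-137862286, plus strand: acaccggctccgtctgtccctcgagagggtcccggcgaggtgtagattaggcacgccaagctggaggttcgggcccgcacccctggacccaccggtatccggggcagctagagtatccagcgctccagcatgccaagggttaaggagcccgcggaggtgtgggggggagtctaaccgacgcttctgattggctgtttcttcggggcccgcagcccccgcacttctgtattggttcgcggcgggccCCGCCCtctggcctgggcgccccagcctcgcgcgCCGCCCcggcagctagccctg

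The first Ace window held 4 GC boxes, of which a pair overlaps, and 1 TATAAA. The second Ace window held 0 of each. The Ece1 window held 2 GC boxes and 0 TATAAA. Among all 32851 listed promoters, 35.7% held a GC box and 13.6% TATAAA. The letters TGAGTCA, the AP-1 motif, were also searched on both strands and were in none of these 3 windows, against 5.2% of all promoters. Such matches describe the letters only.

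Ide, insulin-degrading enzyme, gene ID 15925, is a zinc metallopeptidase that cuts insulin and free amyloid-beta. Its readable probe set, 94380_at, read 607.97 on the PS cDKO array and 619.11 on the control array, a log2 ratio of 0.01 after scaling and -0.03 without it. A further pair of Ide probe sets was below the floor on both arrays. Of these, 160290_at read 81.88 on the PS cDKO array and 61.9 on the control array, and 162160_at read 98.4 on the PS cDKO array and 75.04 on the control array. Without a floor they would be 1.35-fold and 1.34-fold higher, where the median log2 ratio of probe sets of like signal was 0.17 and 0.13. Thus the bright Ide probe set was almost level, and the upward readings came from the dim ones.

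Mme, neprilysin, gene ID 17380, is a cell-surface metallopeptidase that cuts enkephalins, tachykinins and amyloid-beta. It could not be read on these arrays. Its single probe set, 92331_at, had 90.86 on the PS cDKO array and 113.39 on the control array, both below the floor. With no floor that is 1.22-fold lower. Of the 893 probe sets of like signal, 45.2% lay as far from 0 in either direction and 11.5% had a lower ratio. Their median log2 ratio was 0.15.

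Of the matrix metalloproteinases, Mmp2 stood higher, while Mmp9 and Mmp14 differed little. Mmp2, gelatinase A, gene ID 17390, degrades basement membrane collagen and is found in astrocytes and vessel walls. Probe set 95663_at read 319.82 on the PS cDKO array and 233.05 on the control array, 1.40-fold higher, and 10.02% of the 1567 probe sets of like signal lay as far from 0. The control value was only just above the floor, and with a floor at the 60th percentile, a signal of 403, the probe set had no ratio. After lowess and quantile normalization it was 1.34-fold higher. The other Mmp2 probe set, 161509_at, read 48.14 on the PS cDKO array and 34.02 on the control array. It lay below the floor on both, where with no floor the ratio would be 1.45-fold and the median log2 ratio of its 368 neighbours in signal was 0.30.

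Mmp14, gene ID 17387, is a membrane-anchored metalloproteinase that activates the Mmp2 proenzyme. Its probe set 160118_at read 547.41 on the PS cDKO array and 504.14 on the control array, a log2 ratio of 0.15. That was below 0.21, the SD of 1 probe set's log2 ratio estimated from the same-gene pairs above. This SD compares probe sets on the same arrays and holds no variation between animals. Of the probe sets of like signal, 54.7% were as far from 0. Mmp9, gelatinase B, gene ID 17395, read 352.12 on the PS cDKO array and 326.11 on the control array in probe set 99957_at, a log2 ratio of 0.14. Its other probe set, 162369_f_at, was below the floor with 75.89 on the PS cDKO array and 72.59 on the control array. Both Mmp9 probe sets were thus within 0.15 of 0 on the log2 scale, and the activator Mmp14 showed the same small size of difference.

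Neither plasminogen activator was readable on both arrays. Plau, urokinase, gene ID 18792, read 244.36 on the PS cDKO array and 162.13 on the control array in probe set 97772_at, a bound of at least 1.08-fold higher. With a floor at the 20th percentile, a signal of 114, it was measured on both arrays and was 1.54-fold higher, the only member past 1.5-fold in any setting. In that setting 1 of 11 member probe sets was at least 1.5-fold higher and 0 lower, against 2.6% and 1.44% of the 10242 measured probe sets. With no floor it was 1 of 16 and 0, against 6.35% and 2.72% of 12387, so the share of members was close to that of all probe sets. With no floor, too, 4.72% of the 1334 probe sets of like signal had a higher ratio than Plau and 6.15% lay as far from 0. Plat, tissue plasminogen activator, gene ID 18791, which also acts at synapses, read 124.48 on the PS cDKO array and 89.08 on the control array in probe set 93981_at. Both values were below the floor. With no floor Plat would be 1.43-fold higher. Of the 938 probe sets of like signal, 14.8% had a higher ratio and 19.2% lay as far from 0.

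A2m, α2-macroglobulin, gene ID 232345, traps proteases and carries amyloid-beta to the receptor Lrp1. Its probe set 104486_at read 230.15 on the PS cDKO array and 191.41 on the control array, so that it crossed the floor on the PS cDKO array by a small margin and gave a bound of at least 1.02-fold higher. After quantile normalization or lowess it lay below the floor on both arrays and gave no bound. With no floor it was 1.23-fold higher, and 33.8% of the 1350 probe sets of like signal lay as far from 0.

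More members read higher than lower. Of the 6 genes readable on both arrays 5 were higher and 1, Ece1, was lower, and their median log2 ratio was 0.15. Among the 5, Ide (0.01), Mmp9 (0.14), Mmp14 (0.15) and Ace (0.19) lay within 0.21, the SD of 1 probe set's log2 ratio. The Ace value averages readable probe sets at 0.41 and -0.02. Mmp2 (0.49) lay past that SD, with a control value only just above the floor. Without scaling the count was 4 higher and 2 lower with a median of 0.11. Over the 5414 such genes of the arrays 50.8% were higher and the median was 0.01. With no floor 13 of the 16 member probe sets were higher and their median log2 ratio was 0.35, against 57.0% and 0.05 for the 12387 probe sets above 0 on both arrays. Ide, Mmp2, Mmp9 and Ace have more than 1 probe set among the 16. By gene with no floor, 8 of the 10 were higher and 2 lower, with a median of 0.29, against 0.04 over 8240 genes. The arrays themselves leaned the same way at low signal: of the 4582 probe sets below the floor on both arrays and above 0, 64.8% read higher on the PS cDKO array, with a median log2 ratio of 0.13. Of the member probe sets in that range 5 were higher and 1 was lower, with a median of 0.43. Set against the median ratio of probe sets of like signal, 11 of the 16 member probe sets lay above it and 5 below. More than 1 probe set each of Ide, Mmp2 and Ace was among the 11. The part of this low-signal shift in the member ratios was not tested.

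**Figure D2:**
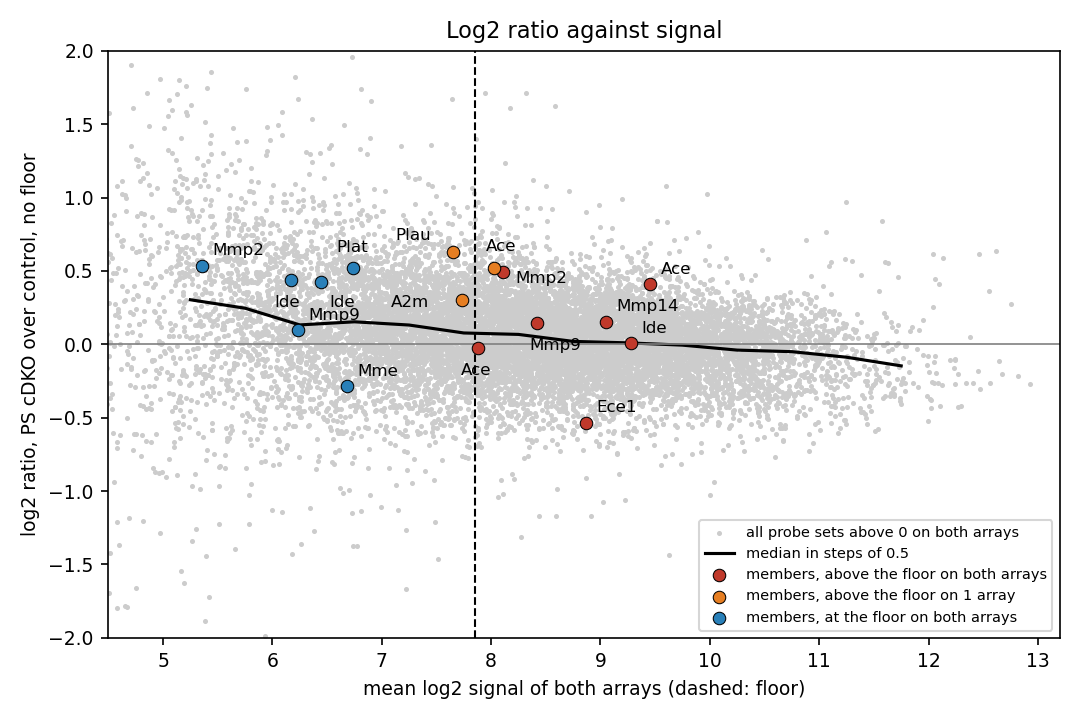
Log2 ratio of PS cDKO over control with no floor, against the mean log2 signal of both arrays, for all probe sets (grey, 236 lie outside the plotted window) with their median in steps of 0.5 (line), and the 16 member probe sets coloured by how many arrays put them above the dashed floor. The median line is above 0 at low signal, and the dim probe sets of Mmp2, Ide, Plat and Plau lie above it, while Mme, Ece1, the dimmer Mmp9 probe set and the dimmest of Ace lie below it.

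Genes around these proteases were described by 7 lists. Each gene's value averages its probe sets that were readable on both arrays, or its bounds where it had no other. The direction of each bound was fixed by the array that passed the floor. Among all 5885 measured genes 8.05% were at least 25% higher, 8.36% at least 20% lower, and the median log2 ratio was 0.01. Cst3 and Lrp1 stand in more than 1 list, and Ttr, Tyrobp, Sst, Vip and Igf2 are also cell type markers.

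Protease inhibitors lay on both sides of level. Most are known to act on proteases of the members' classes, but Cst3, cystatin C, acts on cysteine proteases, a class to which no member belongs. Of 12 listed genes 9 were measured, 6 higher and 3 lower. Only 7 were readable on both arrays, and the rest gave bounds counted as higher, a direction the filter fixed. Of the 9, 3 were at least 25% higher and 1 at least 20% lower, with a median log2 ratio of 0.05. That median was 0.36 with the floor lowered to the 20th percentile and 0.47 without one. Timp1, a secreted inhibitor of matrix metalloproteinases, read 1193.28 on the PS cDKO array and 954.87 on the control array, 1.28-fold higher. Cst3, which also binds amyloid-beta, was 1.36-fold higher, and Serpina3n, a serpin of reactive astrocytes, 1.79-fold higher. Serpini1, neuroserpin, the neuronal inhibitor of Plat, read 923.77 on the PS cDKO array and 1242.54 on the control array, 1.31-fold lower.

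In the plasmin system 7 of 13 listed genes were measured, 4 higher and 3 lower, with a median log2 ratio of 0.07. Plaur, the receptor that holds urokinase at the cell surface, was the 1 gene at least 25% higher, with 493.29 on the PS cDKO array and 385.63 on the control array (1.31-fold), and 0 were as far lower. Anxa2, a cell-surface partner of plasminogen and Plat, was 1.16-fold higher, and Lrpap1, the chaperone of Lrp1, had a log2 ratio of -0.18. F2r, the thrombin receptor, had a gene value of 0.12 from a pair of probe sets, whereas a further probe set read 115.15 on the PS cDKO array and 272.59 on the control array, a bound of -0.23.

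Other metalloproteinases and sheddases had 13 of 24 listed genes measured, 8 higher and 5 lower, with a median log2 ratio of 0.04. Of these 2 were at least 25% higher and 0 as far lower. The 2 were Mmp10 and Mmp7. Mmp10, stromelysin 2, was 1.36-fold higher with a control value of 234.48 at the floor's edge. Mmp7, matrilysin, was at least 1.52-fold higher, a bound from 343.64 on the PS cDKO array and 201.52 on the control array. Mmp7 passed the floor on the PS cDKO array alone, so its direction was fixed by the filter. Mmp24, a membrane-type enzyme of neurons, was 1.24-fold and the neutrophil collagenase Mmp8 1.22-fold higher. Adam10, the main α-secretase of neurons, had a log2 ratio of 0.19.

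Other peptidases had 9 of 22 listed genes measured, 5 higher and 4 lower, with a median log2 ratio of 0.17. Without suffixed probe sets the median was -0.0041. The 1 gene at least 25% higher was Cpe, the carboxypeptidase of secretory granules, and 0 were as far lower. Its probe sets 99642_i_at and 99643_f_at had log2 ratios of 0.56 and 0.41, and both carry a suffix. The membrane aminopeptidases Anpep and Enpep had log2 ratios of 0.32 and 0.17, and Phex, a metallopeptidase related to Mme, had 0.22.

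A further list held App, its homologues and binding proteins, and the secretases that cut it. Of 8 measured genes of 15 listed, 6 were lower and 2 higher, with 3 at least 20% lower, 0 at least 25% higher and a median log2 ratio of -0.31. App, the precursor itself, read 3728.03 on the PS cDKO array and 5100.94 on the control array, 1.34-fold lower. Itm2c and Itm2b, membrane proteins that bind App, were 1.32-fold and 1.28-fold lower, and the App homologue Aplp2 1.24-fold lower. Both higher genes, named after their values were seen, encode γ-secretase subunits, Aph1a with a log2 ratio of 0.17 and Psenen with 0.12. The list's median ranged from -0.34 to -0.25 over all settings.

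Among other routes of removal 15 of 22 listed genes were measured, 10 higher and 5 lower. Of these 5 were at least 25% higher and 1 at least 20% lower, and the median log2 ratio was 0.13. That median was 0.0035 without suffixed probe sets, where the median of all genes was 0.0074. It was also 0.0035 with the brightest probe set of each gene, where that of all genes was 0.0084. Msr1, a scavenger receptor of macrophages that takes up amyloid-beta, read 447.22 on the PS cDKO array and 287.58 on the control array, 1.59-fold higher. Tyrobp, the signalling adaptor of Trem2, was 1.47-fold and Ctsd, a lysosomal protease, 1.39-fold higher. Ttr, a carrier protein of the choroid plexus that binds amyloid-beta, was 1.84-fold lower.

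Peptides cut by Mme, Ide, Ece1 and Ace, with their receptors, had 18 of 27 listed genes measured, 13 higher and 5 lower, with a median log2 ratio of 0.06. Of these 2 were at least 25% higher and 4 at least 20% lower. The cortical neuropeptides Cck, Sst and Npy were 1.52-fold, 1.47-fold and 1.47-fold lower. Ins2, an insulin gene, was 1.36-fold higher in a suffixed probe set, 161849_r_at, while its other probe set lay below the floor with 45.18 on the PS cDKO array and 63.98 on the control array.

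**Figure D3:**
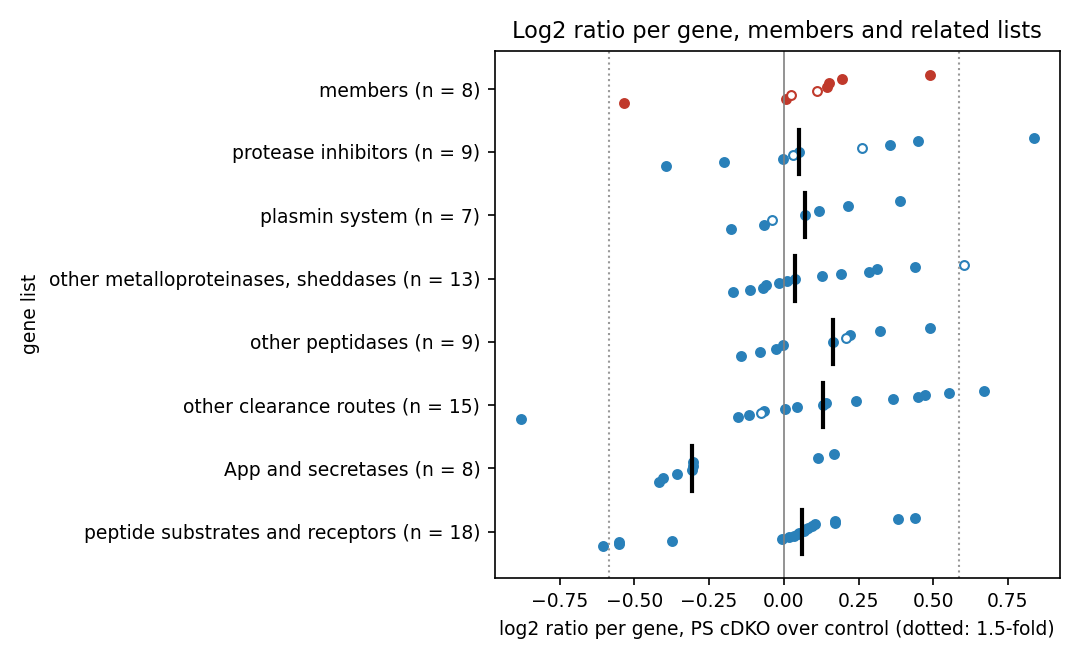
Log2 ratio per gene of PS cDKO over control for the members (red) and the 7 related lists (blue), filled where the gene was readable on both arrays and open where it gave a bound, with the list's median as a bar (none is drawn for the members) and 1.5-fold dotted. The members, with bounds at their limit, spread from -0.54 (Ece1) to 0.49 (Mmp2), inside the dotted lines. The list of App, its partners and the secretases is the one with its median below 0.

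Cell type markers differed between the arrays as well, and in bulk cortex more cells of a type and more RNA per cell cannot be told apart. All 9 measured microglia and macrophage markers of 11 listed were higher. Their median log2 ratio was 0.55 and their summed signal, which adds the same probe sets on both arrays and weighs bright ones most, was 6296 on the PS cDKO array and 4107 on the control array. Without C1qa, the gene of the largest change in signal, the sums were 5171 on the PS cDKO array and 3575 on the control array. Of 7 astrocyte markers 5 read higher. The median for astrocytes was 0.20 on the log2 scale, and 0.07 with the brightest probe set of each gene or a floor at the 60th percentile. They summed to 10839 on the PS cDKO array and 9271 on the control array, and Gfap, 4.68-fold higher, made up more than this gap, since the other 6 summed to 8694 on the PS cDKO array and 8813 on the control array. All 5 measured markers of cortical excitatory neurons were lower, with a median of -0.50 and sums of 6222 on the PS cDKO array and 8738 on the control array, or 3901 on the PS cDKO array and 5459 on the control array without Hpca, whose signal changed most. These neuronal markers, Nrgn and Tbr1 among them, were readable on both arrays. Inhibitory neuron markers had a median of -0.19 over 5 genes, which was 0.062 with the floor lowered to the 20th percentile and 0.069 without one. Endothelial and mural markers had a median of -0.15 over 4 of 11 genes, with Pecam1, Tek and Cdh5 below the floor, and meningeal and fibroblast markers one of 0.08 over 6 genes. Oligodendrocyte, choroid plexus and blood markers had medians of -0.21, 0.10 and -0.08 over 3, 3 and 4 genes. The part of any of these cell types in the ratios of Ece1, Mmp2, Ace or Plau was not tested.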

How the data were processed

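Cortical RNA of each genotype was hybridised to 1 array. The deposited values are 1 linear intensity per probe set and array. The software, the background step and any scaling by the authors are not stated in the sources used here. Negative deposited intensities (18 on the PS cDKO array and 13 on the control array) show that something had been subtracted. Arrays carry no counts, so their number limits the precision.

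Gene symbols came from the platform's annotation, which may be dated: 10829 had 1 symbol, 396 several and 1193 none. Of the 8251 genes, 8237 had their gene ID in the RefSeq table of GRCm38.p6, used for names. The PS cDKO array was scaled by 0.034 on the log2 scale, to a median ratio of 0 over the upper part of both arrays' ranks (the probe sets past the median in each), then floored at the 40th percentile of both arrays pooled. Probe sets and genes past 1.5-fold, or 25% higher or 20% lower, were counted with no test. Probe sets of like signal are those within 0.25 log2 of a member's mean signal, compared with no floor.

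The members, 7 pathway lists and 9 marker lists were chosen with earlier results of these data known. Named from a pathway list were the up to 4 genes readable on both arrays with the largest absolute log2 ratio. From a marker list up to 2 such genes were named, and from a pathway list also any bound past 1.5-fold. Hpca, Aph1a, Psenen, Pecam1, Tek and Cdh5 were named outside this rule after their values were seen. Alternatives were no scaling, quantile normalization, lowess (span 0.3), a floor at the 20th or the 60th percentile or none, a larger fold (2) and a smaller one (25% higher or 20% lower), no suffixed probe sets, and the brightest probe set of a gene. The code was tested on simulated data. Python 3.11.15, numpy 2.4.6, pandas 2.3.3, statsmodels 0.14.6 and matplotlib 3.10.9 were used.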

Additional observations from a re-analysis of the deposited data

How the results depend on the processing

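No paired analysis was possible because each genotype has 1 array, and for the same reason no array could be left out. A log2 value was taken as moved when it changed by more than 0.21, the estimated SD of 1 probe set's log2 ratio, and 153 of 161 log2 values under the alternatives did not. Of 18 counts of member probe sets past a fold 14 were 0, as the reported ones were. Few were to be expected, as 1.31% (higher) and 1.18% (lower) of all measured probe sets passed 1.5-fold. These totals leave out values that were lost: A2m had no bound after quantile normalization or lowess, and 6 member probe sets had neither ratio nor bound with a floor at the 60th percentile. Part of the agreement in these totals was fixed in advance. A probe set readable on both arrays keeps its ratio when the floor is lowered or removed. Leaving out the scaling moves such a ratio by 0.034 on the log2 scale. A count of 0 past 1.5-fold must also be 0 past 2-fold. Plau went to 0.63 and A2m to 0.30 when the floor was lowered to the 20th percentile or removed, since their bounds then became ratios. The inhibitor list went to 0.36 and 0.47, and the inhibitory neuron list to 0.062 and 0.069, with these 2 floors, which take in dimmer probe sets. The count of member probe sets at least 1.5-fold higher, 0 here, was 1 of 11 with the floor at the 20th percentile and 1 of 16 with none. The shares of all measured probe sets were 2.6% and 6.35%. Past 25% higher there were 3 member probe sets, 2 of them of Ace, and past 20% lower 1. None, a count of 0, reached 2-fold either way, a step that 0.141% (higher) and 0.166% (lower) of all measured probe sets reached. The median of 5 lists and settings took another sign: the inhibitory neuron list as given, endothelial and mural markers at 0.0059 (20th percentile), other metalloproteinases at -0.0023 (60th percentile) and other peptidases at -0.0041 (no suffixed probe sets). With a floor at the 60th percentile 4 member probe sets still had a ratio or bound: those of Ide, Ece1, Mmp14 and Ace. No scaling shifted the overall gene median by 0.1 or more.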
